A study of Mus musculus with 31 samples.

Results

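The comparison described here lies inside cells treated with neuromedin U (NmU): 3 arrays of cells given NmU for 3 h were set against 4 arrays of cells given NmU for 0.8 h. These 7 arrays were taken by treatment and time from the 31 arrays of the series. Of the 12422 probe sets that are not array controls, 7541 had a mean signal above 20.2 in at least 1 of the groups and were tested, and they stood for 5641 named genes. No array of vehicle-treated cells entered this comparison.

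The cells were D10.G4.1, a cloned line of mouse T helper 2 (Th2) cells, so every array reports on 1 clone. The study gave the cells NmU or phosphate-buffered saline (PBS), the vehicle, and took total RNA after 0.8, 3, 6 and 12 h, with 4 arrays in each group except NmU at 3 h, which had 3. The groups used here are NmU at 0.8 h (4 arrays) and NmU at 3 h (3 arrays), with PBS at 0.8 h and PBS at 3 h (4 arrays each) as the background of elapsed time. The dose of NmU was not given in the sources used here, and neither was whether the arrays of a group came from separate cultures, so the p-values measure the spread between these arrays, which may be technical.

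NmU is a neuropeptide that acts on G protein-coupled receptors, and its receptor Nmur1 is carried by several kinds of lymphocytes of the type 2 immune response. In stimulated lymphocytes, immediate-early genes are transcribed at once from factors already present in the cell, and many of their messages are short-lived because they carry AU-rich elements. Their products, together with the calcium-regulated NFAT factors, act on cytokine and chemokine genes, whose transcripts accumulate later.

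Promoters of 4 genes are shown because these genes stand for both sides of the comparison: Fos and Zfp36 fell between 0.8 and 3 h, and Ccl1 and Il5 rose. Each is the 250 bases before the annotated start of transcription in RefSeq (build GRCm38.p6), 5′ to 3′ on the gene's strand. Capitals mark a TGACG motif (the core of a cAMP response element), a CArG box (the site of serum response factor) or a GGAAA motif (the core of NFAT sites), each searched on both strands. Fos lies on the plus strand at chr12:85473640-85473889, Zfp36 on the minus strand at chr7:28379229-28379478, Ccl1 on the minus strand at chr11:82179813-82180062 and Il5 on the plus strand at chr11:53720544-53720793.
Fos: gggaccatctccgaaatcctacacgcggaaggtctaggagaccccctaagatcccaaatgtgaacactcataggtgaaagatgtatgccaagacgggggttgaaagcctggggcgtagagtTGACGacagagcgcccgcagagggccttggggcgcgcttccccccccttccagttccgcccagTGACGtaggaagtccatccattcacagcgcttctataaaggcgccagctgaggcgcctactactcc
Zfp36: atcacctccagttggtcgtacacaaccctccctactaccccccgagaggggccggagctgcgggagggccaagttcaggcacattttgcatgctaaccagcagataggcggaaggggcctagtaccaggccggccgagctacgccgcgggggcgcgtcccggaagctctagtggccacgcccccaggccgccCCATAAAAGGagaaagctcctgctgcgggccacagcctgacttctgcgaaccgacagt
Ccl1: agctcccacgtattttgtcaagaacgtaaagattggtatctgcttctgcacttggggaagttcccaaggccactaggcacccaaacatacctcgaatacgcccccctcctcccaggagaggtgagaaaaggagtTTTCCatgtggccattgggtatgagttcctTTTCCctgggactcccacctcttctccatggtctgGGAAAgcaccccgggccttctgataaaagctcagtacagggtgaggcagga
Il5: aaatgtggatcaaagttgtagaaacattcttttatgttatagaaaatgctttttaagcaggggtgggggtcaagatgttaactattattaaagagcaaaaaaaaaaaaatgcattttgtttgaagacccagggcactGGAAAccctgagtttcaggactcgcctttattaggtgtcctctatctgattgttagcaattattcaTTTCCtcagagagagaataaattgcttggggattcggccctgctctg
The Fos window held 2 TGACG motifs, which began 129 and 66 bases before the start. The Zfp36 window held 1 CArG box, 58 bases before the start. Bases farther upstream than 250 were not searched, so a site there would not show. GGAAA was found at 3 places in the Ccl1 window and at 2 in that of Il5. Over all 32851 promoters of the table, a window of this length held TGACG in 17.8%, a CArG box in 1.47% and GGAAA in 55.6%. Of the 4584 genes tested that had a promoter in the table, 31.4% held TGACG, 1.37% a CArG box and 59.8% GGAAA in at least 1 promoter. Promoters were matched for 7 of the 9 immediate-early and decay-factor genes that fell (all but Egr1 and Ier2), and 6 of these 7 held TGACG. Of the 8 Th2 cytokine and chemokine genes that rose, 6 were matched (all but Ccl4 and Ccl7), and 6 of 6 held GGAAA. A CArG box was held by 2 of the 7 that fell (Egr2 and Zfp36) and by 0 of the 6 that rose. A match is a string of letters and not a shown binding site.

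Between 0.8 and 3 h of NmU, 7 of 15 measured immediate-early transcription factors fell, with Egr1, Fos and Egr2 in front, while 4 of 8 chemokines, led by Ccl1, and 4 of 7 Th2 cytokines rose. Of the cell division machinery, 15 of 31 mitosis genes and 10 of 34 DNA replication genes fell. The members of these lists were chosen with earlier results of these data known, so such counts are not independent support. By limma's moderated test with Benjamini-Hochberg adjustment, 176 of the 7541 probe sets (2.33%) were higher at 3 h and 282 (3.74%) were lower at an adjusted p under 0.05. Of these, 41 rose and 72 fell by at least 2-fold. Counted by gene, 129 of 5641 (2.29%) were higher and 240 (4.25%) were lower, and the median log2 change over all genes was -0.01. These shares are the background for the count of each list below. The number of arrays limits these counts: without NmU 0.8 h replicate 1 they were 92 higher and 133 lower, without NmU 0.8 h replicate 2 they were 114 and 154, and without NmU 3 h replicate 1, 2 or 3 they were 102 and 177, 94 and 146, and 87 and 134.

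**Figure D1:**
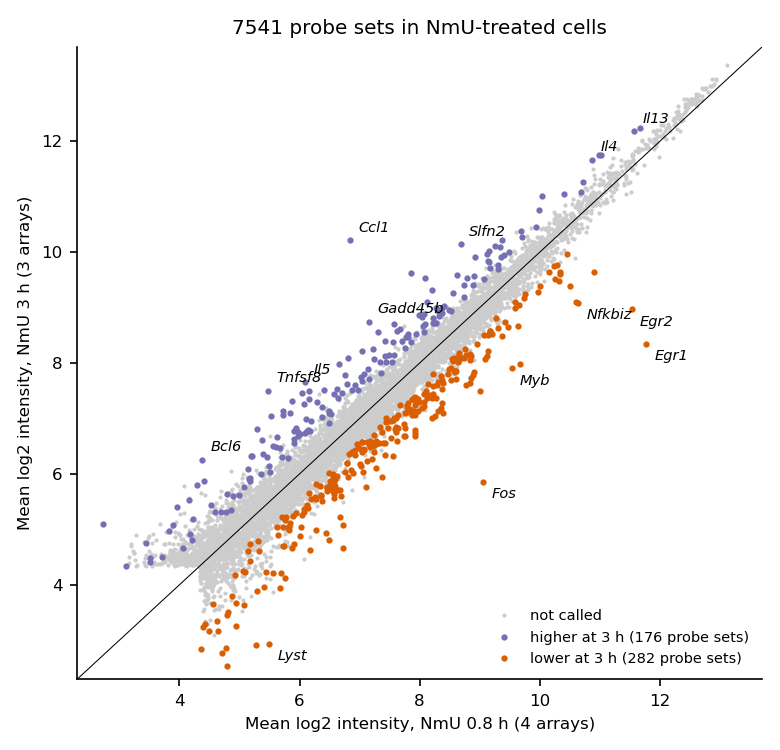
Mean log2 intensity of each of the 7541 probe sets in NmU-treated cells at 0.8 h (x axis, 4 arrays) and 3 h (y axis, 3 arrays), with probe sets called higher or lower in colour and the line of equal signal drawn. Egr1, Egr2 and Fos lie farthest below the line among bright probe sets, and Ccl1 lies farthest above it.

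The labels were checked against marker genes first. The summed signal of the 11 T helper markers on the array (among them Gata3) was 7058 to 8061 at 0.8 h and 7175 to 8022 at 3 h, so the ranges overlapped and none of the 9 that were tested was called. Of the 7 lists of markers of other cells, none had a called gene. Each had at least 2 members below the filter, and so did the T helper list, with 2 (Cd5 and Thy1). The list of B cell markers, whose median signal was 18.6, summed to 160 to 189 at 0.8 h and 199 to 217 at 3 h. Mast cell and basophil markers summed to 91.5 to 110 and then 111 to 141, and those of Th1, Th17 and regulatory T cells, none of which passed the filter, to 24.6 to 32.7 and then 34.0 to 50.1. The list for CD8 T and NK cells had 1 measured gene, Gzmb, and summed to 1712 to 2230 at 0.8 h and 2375 to 3440 at 3 h. Nearly all of that sum was Gzmb itself, at 1682 to 2175 and then 2336 to 3407. Gzmb was not called by limma (adjusted p 0.127), and its PBS means were 2156 and 2672. The other 6 members were below the filter, among them Cd8a (means of 2.7 and 5.0) and Cd8b1 (2.3 and 2.9). The sums of these 4 lists did not overlap between the groups, and those of the other 3 did. Median signals were also low for the mast cell and basophil list (8.27) and the Th1, Th17 and regulatory T cell list (9.25). How often sums of other, equally dim genes fail to overlap was not tested, so the 4 lists do not show a rise of any cell type. The part of these other cells in the results was not tested, and fewer cells of a type and less RNA per cell cannot be told apart in bulk RNA. The arrays of a group correlated at 0.970 to 0.983 over log2 signals, against 0.955 to 0.968 between the groups.

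Among 15 measured immediate-early transcription factors, 7 fell, 1 rose and 7 did not pass the test, and the median log2 change was -0.48. Egr1, a zinc finger factor induced within minutes of receptor signalling, had signals of 3366, 3703, 3367 and 3564 at 0.8 h and of 281.9, 322.9 and 379 at 3 h. Every array at 3 h lay far below every array at 0.8 h, a change of -3.43 ± 0.12 (log2 ± SE), or 10.7-fold (adjusted p 2.51e-05). Fos, a subunit of the AP-1 factor, gave 533.9, 476.2, 530.3 and 590.2 at 0.8 h and 59.5, 65.5 and 50.2 at 3 h. The groups did not overlap, and Fos fell by 3.19 ± 0.13 on the log2 scale, a 9.15-fold change (adjusted p 3.07e-05). Egr2, a related zinc finger factor, fell 5.87-fold, from 2954 ± 31.1 (SD, n = 4) to 509 ± 93.3 (SD, n = 3). Every NmU array at 3 h was above every PBS array at 3 h for these 3 genes, where the PBS means were 111 for Egr1, 25.8 for Fos and 116 for Egr2.

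The smaller falls in this list came from Ier2, an early response gene (1703, 1528, 1540 and 1487 at 0.8 h, 547.5, 576.2 and 515.4 at 3 h, a change of -1.52 ± 0.10), and from Nr4a1, an orphan nuclear receptor (307 to 135, -1.21 ± 0.19, adjusted p 0.0121). Junb, another AP-1 subunit, fell from 806 to 530, a call that was lost without NmU 3 h replicate 2 or replicate 3 (highest adjusted p 0.0562). Atf3, a stress-induced bZIP factor, fell by 0.48 on the log2 scale. The Atf3 call stood only without NmU 3 h replicate 1 when 1 of the 7 arrays was left out, with adjusted p up to 0.112, and a dimmer probe set of the gene gave -0.05. It was also lost with the mean over both probe sets (-0.27, adjusted p 0.206) and with a common median (0.078). Klf10, a repressor induced by TGF-β, was the exception in direction. It had 66.7, 58.6, 74.3 and 87.8 at 0.8 h and 190.9, 184.9 and 164.6 at 3 h, a rise of 1.34 ± 0.15, and its PBS means were 146 at 0.8 h and 215 at 3 h, above those of NmU-treated cells at the same times.

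The members that did not pass the test were not of 1 kind. Myc, the growth regulator, gave signals of 412.5, 538, 492.4 and 401.5 at 0.8 h and 360.2, 276.8 and 278.3 at 3 h, with an adjusted p of 0.0594, and in PBS-treated cells it changed by -0.57 on the log2 scale over the same interval. Fosl2 (adjusted p 0.0504), Jund and Maff had higher means at 3 h, by 0.65, 0.57 and 0.89 on the log2 scale. Klf6 gave -0.31, Fosl1 -0.29 and Fosb -0.17. Of the 15 factors, 11 had a negative and 4 a positive change. Maff passed the filter on low signals only through its arrays at 3 h.

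**Figure D2:**
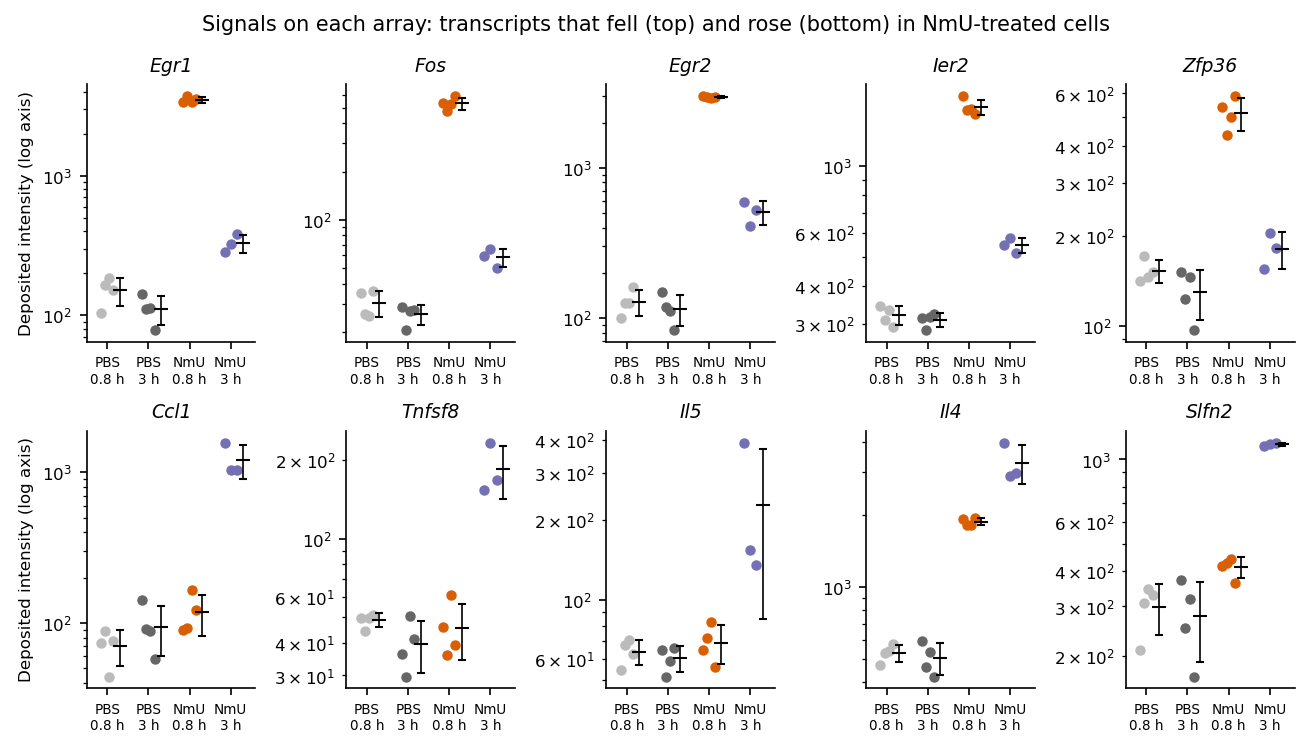
Deposited intensity on each array (log axis) for 5 genes that fell (top) and 5 that rose (bottom), in PBS-treated cells at 0.8 and 3 h (greys) and NmU-treated cells at 0.8 h (orange) and 3 h (purple), with the mean and SD beside the points. No array at 3 h overlaps an array at 0.8 h in NmU-treated cells, and the NmU 3 h arrays of Il5 spread from 135.7 to 389.6.

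Regulators that restrain early signalling split in both directions. Of 17 measured feedback regulators, 5 rose (Gadd45b, Nfkbia, Rgs16, Spred2 and Dusp2, the last outside the rule for named genes and given only to complete the count) and 3 fell (Dusp1, Cish and Btg2). Gadd45b, a stress protein that acts on MAP kinase signalling, gave 146.9, 150.5, 132.2 and 144 at 0.8 h and 459.6, 435.2 and 396 at 3 h. All 3 late arrays were above all 4 early ones, a rise of 1.58 ± 0.10 (3.00-fold, adjusted p 0.00038), and the PBS mean at 0.8 h was 232. Nfkbia, the inhibitor that holds NF-κB in the cytoplasm, rose from 569 to 1038 (0.87 ± 0.10). Dusp1, a phosphatase of MAP kinases, gave 214.4, 211.3, 211.9 and 222 at 0.8 h and 91.1, 105.6 and 112.4 at 3 h, a change of -1.07 ± 0.10. Cish, an inhibitor of STAT5 signalling, fell from 1273 to 717 (-0.84), and its PBS means were 777 and 574 (-0.45, not called). A difference of its change from PBS was not shown by limma (-0.38, adjusted p 0.377). Rgs16 lost its call without NmU 0.8 h replicate 1 or NmU 3 h replicate 2 or 3, Spred2 without NmU 0.8 h replicate 1 or any NmU 3 h array, and Btg2 without NmU 0.8 h replicate 1 or NmU 3 h replicate 1 or 2 (highest adjusted p 0.0629, 0.0589 and 0.0672).

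Of 12 measured mRNA decay factors, 2 fell and none rose, where 2.29% of all genes tested were higher and 4.25% lower. Zfp36 (tristetraprolin), which binds AU-rich elements and promotes decay of cytokine messages, gave 540.8, 434.3, 498.9 and 587.6 at 0.8 h and 154.6, 205 and 182.1 at 3 h. The arrays did not overlap, and Zfp36 fell by 1.51 ± 0.14 on the log2 scale (2.86-fold, adjusted p 0.00208), with PBS means of 152 and 129. The other was Btg2, an antiproliferative factor that recruits deadenylases, at -0.84 ± 0.15.

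Of 17 measured genes of the NF-κB pathway, 2 rose, 2 fell and 13 did not pass the test, where 2.29% of all genes tested were higher and 4.25% lower. Nfkbiz, a nuclear cofactor of NF-κB, gave 1510, 1773, 1588 and 1498 at 0.8 h and 577.5, 491.5 and 565.7 at 3 h, and fell by 1.55 ± 0.11. A dim second probe set of Nfkbiz (means of 21.9 and 18.4) gave -0.27 and was not called. Irf1, an interferon regulatory factor, fell from 800 to 406 (-0.98 ± 0.10). Relb, a subunit of the non-canonical pathway, rose from 125 to 184, and its call was lost without NmU 0.8 h replicate 1 or NmU 3 h replicate 2 or 3 (highest adjusted p 0.0679). Map3k8, a kinase upstream of ERK, gave 767.8, 900.7, 762.4 and 841 at 0.8 h and 258.7, 247.8 and 248.8 at 3 h, a change of -1.70 ± 0.10 (adjusted p 0.000332).

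Chemokines had the largest median log2 change of the 38 lists. Of 34 listed chemokines, 25 were on the array and 8 passed the filter on low signals; 4 of these 8 rose, none fell, and the median log2 change was 0.79. Cxcl2 passed the filter only through its arrays at 3 h. Ccl1, the ligand of the Th2 receptor Ccr8, had signals of 90.5, 92.3, 165.8 and 122.7 at 0.8 h and of 1569, 1032 and 1039 at 3 h. Every late array was at least several times above every early one, a change of 3.38 ± 0.25 (10.4-fold, adjusted p 0.000629), while the PBS means were 70.5 and 94.7. Ccr8 itself was not called, with means of 435 and 332 (adjusted p 0.0698).

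The other chemokines that rose attract monocytes and other effector cells. Ccl3 gave 48.8, 40.9, 55.7 and 40 at 0.8 h and 160, 126.5 and 113.7 at 3 h (1.52 ± 0.17). Ccl4 gave 62, 66.4, 71.3 and 68.9 and then 180.2, 169.9 and 119.6 (1.20 ± 0.15). Neither Ccl3 nor Ccl4 showed an overlap between the groups. Ccl7, a monocyte chemoattractant, rose from 612 to 1120 (0.86 ± 0.16), and that call was lost without NmU 0.8 h replicate 1 or 4 or NmU 3 h replicate 1 or 3 (highest adjusted p 0.0564). With all arrays of the series in the fit, neither Ccl4 (adjusted p 0.065) nor Ccl7 (0.165) was called. Ccl5, Cxcl2, Ccl22 and Ccl2 did not pass the test, at 0.63, 0.72, 0.15 and 0.13 on the log2 scale. For Ccl2 the value rested on 1 array: NmU 3 h replicate 1 gave 76.5 against 36.9 and 35.5 on the others, and without it the change was -0.23.

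Of 7 measured Th2 cytokines, 4 rose and none fell, with a median log2 change of 0.60. Il4, the defining Th2 cytokine, gave 1910, 1807, 1819 and 1945 at 0.8 h and 3987, 2895 and 2971 at 3 h. The groups did not overlap, and Il4 rose by 0.80 ± 0.13 (1.74-fold, adjusted p 0.0147), from a level that at 0.8 h was already above the PBS mean of 529. Of its other probe sets, 1 was called and rose by 0.96, and the others, both dimmer, gave -0.61 and -0.20 and were not called. The mean over the 4 probe sets changed by 0.24 and was not called (adjusted p 0.401). Il13, which drives mucus and smooth muscle responses, gave 3143, 3038, 2761 and 3283 and then 5222, 4049 and 4713 (0.60 ± 0.12, adjusted p 0.0275). Il5, the growth factor of eosinophils, gave 65, 72, 82.5 and 55.7 at 0.8 h and 389.6, 153.6 and 135.7 at 3 h (1.56 ± 0.35, adjusted p 0.0404), with PBS means of 63.8 and 60.3. The lowest Il5 array at 3 h was above the highest at 0.8 h, and replicate 1 was well above the others. Il9, a growth factor of mast cells, rose from 29.1 to 41.1 (adjusted p 0.0443), with PBS means of 40.4 and 33.8. Its level at 3 h of NmU was thus near that of PBS at 0.8 h.

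With the brightest probe set, only the Il4 call among the Th2 cytokines stood whichever of the 7 arrays was left out. The Il5 call was lost without any 1 of the NmU 0.8 h arrays or without NmU 3 h replicate 2 (highest adjusted p 0.0952). The call of Il13 was lost without NmU 0.8 h replicate 1, 2 or 3 or NmU 3 h replicate 1 or 3 (0.0901), as well as with a common median (0.0523) or quantile scaling (0.0501), and that of Il9 without any array but NmU 0.8 h replicate 3 (0.129). The number of Th2 cytokines called higher was then 1 without NmU 0.8 h replicate 1 or 2, and 2 without any other array. Il6 (means of 2948 and 2184) and Il10 (4077 and 3358) were not called, at -0.43 and -0.28 on the log2 scale, and Il3 gave 0.69 with overlapping groups. NmU 3 h replicate 1 was the highest of the 3 late arrays for 6 of 7 Th2 cytokines, 6 of 8 chemokines and 2 of 9 other cytokines, against 33.0% of all genes tested, and its part in these rises was not tested beyond leaving it out.

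Of 9 other measured cytokines, 2 rose and 1 fell, beside 2.29% higher and 4.25% lower over all genes tested. Tnfsf8 (CD30 ligand) gave 45.8, 35.9, 60.8 and 39.2 at 0.8 h and 153.3, 232.6 and 167.4 at 3 h, a rise of 2.03 ± 0.22 (4.08-fold, adjusted p 0.00307). Its receptor Tnfrsf8 (CD30) fell from 235 to 140, a call that stood only without NmU 0.8 h replicate 2 when 1 array was left out (adjusted p up to 0.126). Tnfsf11 (RANK ligand) rose from 60.0 to 111 (0.88 ± 0.11), with no overlap. Tnf gave 605.4, 579.2, 445 and 565.2 and then 239.4, 321 and 252.5, a change of -1.02 ± 0.15. Transcripts of TNF family ligands thus moved both ways, with Tnf lower and the ligands of CD30 and RANK higher.

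Of 23 measured cytokine and chemokine receptors, 1 rose and 3 fell, where 2.29% of all genes tested were higher and 4.25% lower. Il4ra, the receptor chain shared by Il4 and Il13, gave 1389, 1359, 1275 and 1865 at 0.8 h and 624.6, 652.2 and 738.5 at 3 h (-1.12 ± 0.15), against PBS means of 1424 and 1338. A dim probe set of Il4ra gave 0.30 and was not called, and the mean over both gave -0.41 (adjusted p 0.158). Cxcr4, the receptor of Cxcl12, gave 113.6, 92.9, 88.9 and 118 and then 33.3, 39.8 and 39.7 (-1.45 ± 0.14). Both fell without overlap. Il12rb1, a chain of the Il12 and Il23 receptors, rose from 310 to 515 (0.72 ± 0.11). The call of Il6st, the signalling chain of the Il6 receptor (87.9 to 52.9), was lost in each fit that left out 1 array (adjusted p 0.0505 to 0.11). Nmur1 gave 162.9, 183.8, 210.9 and 212.3 at 0.8 h and 83.1, 153.6 and 144.2 at 3 h. All 3 late arrays were below the early ones, but the change of -0.64 ± 0.22 did not pass the test (adjusted p 0.131).

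Lineage and signalling factors of T cells changed gene by gene, beside 2.29% higher and 4.25% lower over all genes tested. Of 12 measured Th2 identity genes, 2 rose (Gfi1, 131 to 216, and Crem, 333 to 513) and 3 fell (Irf4, Il4ra and Junb), while Gata3, the master regulator of the lineage, was not called (2330 and 2566). Gfi1 is a repressor that favours growth of Th2 cells, and Crem is a cAMP-responsive factor. The call of Irf4 (1294 to 785) was lost without NmU 3 h replicate 2 or 3 (highest adjusted p 0.0597). Nfatc1, an NFAT factor, gave 102.5, 89.4, 103.7 and 98.3 and then 184.8, 157.1 and 215.2, a rise of 0.91 ± 0.13 without overlap. Ppp3cc, a catalytic subunit of calcineurin, fell from 59.5 to 26.4, and its call was lost without NmU 0.8 h replicate 1, 2 or 4 or NmU 3 h replicate 2 or 3 (highest adjusted p 0.0833). Zap70, the kinase that couples the T cell receptor to its targets, was the sole called gene of 15 in its list, and rose from 2083 to 3482. Its call was lost without NmU 0.8 h replicate 1 or NmU 3 h replicate 3 (highest adjusted p 0.0547) and with the mean over its probe sets (0.231), of which a dim one gave -0.33.

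Of 17 measured quiescence and lymphoid factors, 1 rose and 3 fell, where 2.29% of all genes tested were higher and 4.25% lower. Slfn2, a schlafen protein linked to T cell quiescence, gave 416.5, 428.5, 444.3 and 363.6 at 0.8 h and 1115, 1132 and 1147 at 3 h. The 3 late arrays were nearly equal and all above the early ones, a rise of 1.46 ± 0.10 (2.75-fold, adjusted p 0.000564). Myb, a factor of lymphoid progenitors and dividing cells, gave 709.9, 785.4, 702.5 and 765.1 and then 258.6, 229.7 and 232.4, a change of -1.62 ± 0.10 (3.08-fold, adjusted p 0.000332). Its PBS means were 788 and 820. Mef2c, a calcium-regulated factor, fell 5.12-fold from a low level (54.3, 49, 30.3 and 27.3 to 3.9, 7.4 and 9.9), and 1 of its late arrays was below 5.8, the floor set on the signals. It passed the filter only through its arrays at 0.8 h, and with the floor at 20.2 its change was -0.93 (adjusted p 0.072). The call of Foxo3 (223 to 139) was lost without NmU 0.8 h replicate 1 or any NmU 3 h array (highest adjusted p 0.0704). Cd44, an adhesion receptor raised on activated T cells, gave 48.8, 64.3, 62.8 and 61 and then 186.1, 173.7 and 125.6 (1.44 ± 0.17).

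Transcripts of the cell division machinery were lower at 3 h. Of 31 measured mitosis genes, 15 fell and none rose, 30 had a negative change and the median was -0.60. Of 34 DNA replication genes, 10 fell and none rose, 34 had a negative change and the median was -0.47. In PBS-treated cells the medians of these lists over the same interval were -0.11 and -0.10. Nusap1, a spindle protein, gave 447.6, 451.7, 475.8 and 386.3 at 0.8 h and 183.7, 218.6 and 186.4 at 3 h (-1.17 ± 0.12). Foxm1, the factor that drives mitotic genes, gave 434, 395, 486.6 and 558.1 and then 192.5, 197.5 and 247.5 (-1.14 ± 0.15). Neither overlapped. Ect2, needed for cytokinesis, fell from 134 to 65.9, Aurka, a spindle kinase, from 253 to 141, and Kif4, a chromosome-bound kinesin, from 129 to 72.8. Incenp, of the chromosomal passenger complex, fell from 196 to 109, a call lost without NmU 3 h replicate 2 or 3 (highest adjusted p 0.0538).

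In the replication list, Rfc1, the large subunit of the clamp loader, gave 334, 351, 315.4 and 336.7 at 0.8 h and 225.4, 182.7 and 191.7 at 3 h (-0.75 ± 0.11), and its call stood whichever array was left out. Mcm10 and Mcm7, of the replicative helicase assembly, fell from 271 to 160 and from 866 to 608. Pold1, the catalytic subunit of polymerase δ, fell from 370 to 240, and Tk1, thymidine kinase, from 769 to 551. The calls of Mcm10, Mcm7, Pold1 and Tk1 were each lost without NmU 0.8 h replicate 1 or 2 or NmU 3 h replicate 2 or 3 (and that of Mcm10 also without NmU 0.8 h replicate 3), with adjusted p up to 0.0833, 0.0649 and 0.0871 for Mcm7, Pold1 and Tk1 and 0.0828 for Mcm10. The count of replication genes called lower was 1 without NmU 0.8 h replicate 1 or 2 or NmU 3 h replicate 2 or 3, 6 without NmU 0.8 h replicate 3, and 4 with the arrays scaled to a common median. The count of mitosis genes called lower was 9, 8, 6 and 6 without NmU 0.8 h replicate 1, NmU 0.8 h replicate 2, NmU 3 h replicate 2 and NmU 3 h replicate 3.

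**Figure D3:**
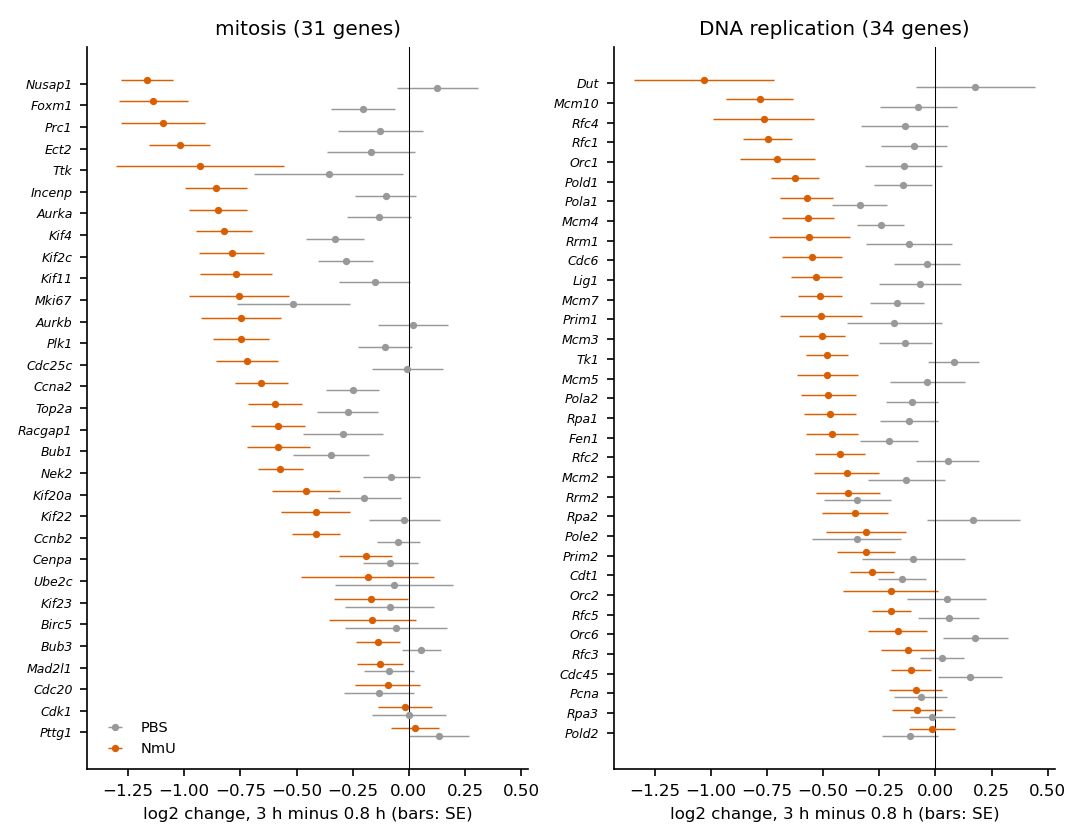
Log2 change from 0.8 to 3 h (x axis, bars are the standard error of the fit) of each measured mitosis gene (left, 31 genes) and DNA replication gene (right, 34 genes) in NmU-treated (orange) and PBS-treated (grey) cells. In NmU-treated cells 30 of 31 and 34 of 34 points are below 0, with medians of -0.60 and -0.47, and in PBS-treated cells the medians are -0.11 and -0.10.

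Regulators of the G1 phase included genes that restrain division. Of 16 measured G1 cyclins and CDK inhibitors, 1 rose and 3 fell, beside 2.29% higher and 4.25% lower over all genes tested. Rbl1 and Rbl2, the pocket proteins p107 and p130, fell: Rbl1 gave 331.4, 332.6, 341.4 and 302.6 and then 154, 146.7 and 137 (-1.16 ± 0.10), and Rbl2 gave 61.5, 67.7, 72.3 and 68.9 and then 36.6, 42.5 and 40.9 (-0.76 ± 0.11). Cdkn2c, an inhibitor of CDK4 and CDK6, fell from 392 to 210 (-0.89 ± 0.13). Ccnd2, a D-type cyclin, gave 537.7, 366.6, 475.8 and 583.6 and then 982.4, 943.2 and 962.5 (0.99 ± 0.16), a rise whose call was lost without NmU 3 h replicate 3 (adjusted p 0.0514). The groups did not overlap for any of these 4 genes. Nor did they for Ccnd3 or Cdkn2d of the same list, which were not called. Mxd3, a Max-binding repressor, was the sole called gene of 11 in the Myc network and fell from 185 to 100. Apaf1, which forms the apoptosome, was the sole called gene of 18 in the apoptosis list and fell from 156 to 69.0 (-1.17 ± 0.11).

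None of 27 nucleolar ribosome biogenesis genes, 22 cytosolic ribosomal proteins, 17 glycolysis genes or 10 housekeeping genes passed the test, with medians of 0.16, 0.16, -0.0034 and 0.0066. Of 35 proteasome subunits, 1 rose (Psmd8), with a median of 0.14, which is near the 2.29% of all genes tested that were higher. The Psmd8 call stood only without NmU 0.8 h replicate 4 when 1 array was left out (adjusted p up to 0.0915). Of 14 cholesterol synthesis and uptake genes, 3 rose: Msmo1 (80.1 to 159), Cyp51 (71.0 to 112) and Idi1 (187 to 262), all enzymes of the pathway. These calls were fragile. The call of Idi1 was lost without any 1 array (adjusted p up to 0.139), that of Msmo1 without NmU 0.8 h replicate 2 or any NmU 3 h array (0.0756), and that of Cyp51 without NmU 0.8 h replicate 1 or 2 or NmU 3 h replicate 1 or 2 (0.0715).

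Stress and interferon lists had 1 called gene in each direction at most, where 2.29% of all genes tested were higher and 4.25% lower. Irf8, an interferon regulatory factor, rose from 64.2 to 106 (0.72 ± 0.11), while Irf1, given above, fell. In the heat shock list of 11 genes Bag3, a co-chaperone, rose from 224 to 358 and Dnajb1, an Hsp70 partner, fell from 194 to 129. The call of Bag3 was lost without NmU 0.8 h replicate 1 or 4 or NmU 3 h replicate 1 or 2 (highest adjusted p 0.0716) and that of Dnajb1 without NmU 3 h replicate 3 (0.0547), and a further probe set of Bag3 gave 0.16. Trib3, a pseudokinase of the amino acid response, fell from 76.8 to 47.9, and Dnajb9, an endoplasmic reticulum chaperone, from 200 to 97.8. The Trib3 call was lost without NmU 3 h replicate 3 (adjusted p 0.0556) and that of Dnajb9 without NmU 3 h replicate 1 or 3 (highest adjusted p 0.0573).

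**Figure D4:**
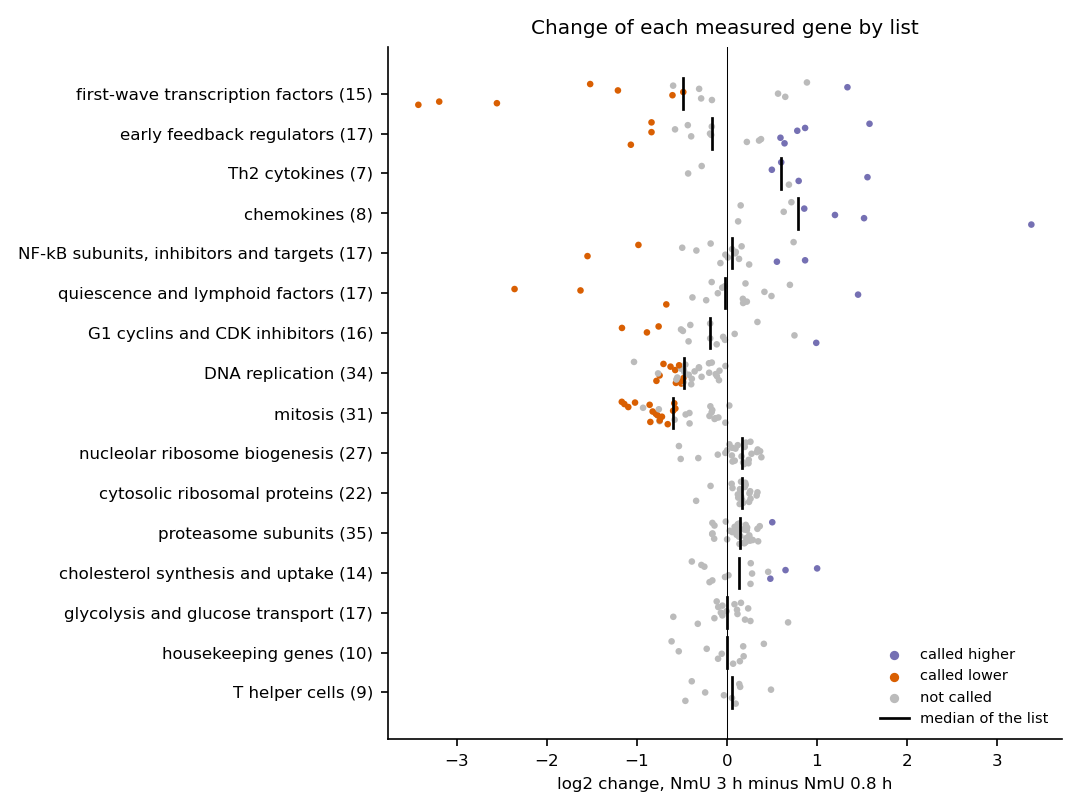
Log2 change from 0.8 to 3 h in NmU-treated cells (x axis) of every measured gene in 16 lists, with the number of genes in brackets, called genes in colour and the median of each list as a black bar. The medians run from -0.60 for mitosis to 0.79 for chemokines, and most genes of the growth and housekeeping lists lie near 0.

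Several of the largest changes lay outside these lists. Among the falls, Lyst, a regulator of lysosome traffic, gave 42.1, 44.9, 47.1 and 46.6 at 0.8 h and 3.8, 12.4 and 6.3 at 3 h (-2.55 ± 0.25). Aspm, a spindle pole protein, gave 20.6, 24.8, 38.4 and 29.8 and then 3, 3.3 and 3.7. All 3 late arrays of Aspm were below the floor of 5.8, so it was at least 4.77-fold lower. Stil, a centriole protein, fell from 72.3 to 25.4, Mknk1, a kinase of the translation factor eIF4E, from 90.9 to 29.3, Inha, an inhibin subunit, from 52.3 to 15.4, Ptdss2, of phosphatidylserine synthesis, from 31.2 to 9.80, and Barx2, a homeobox factor, from 27.0 to 6.73. No array of these genes at 3 h reached the lowest array at 0.8 h, but that was a condition for the largest changes named here. Each was a dim probe set at 3 h. Lyst, Aspm, Inha, Ptdss2 and Barx2 passed the filter only through their arrays at 0.8 h. With the floor at 20.2, Aspm (-0.45, adjusted p 0.228) and Barx2 (-0.37, adjusted p 0.36) were not called.

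Among the rises, Bcl6, a repressor of Th2 cytokine genes, gave 20.7, 23.8, 16.6 and 23 at 0.8 h and 47.4, 93.8 and 100.9 at 3 h (1.88 ± 0.27). Tle3, a corepressor, gave 272.3, 284.7, 268.5 and 260.6 and then 849.9, 694.1 and 700.7 (1.46 ± 0.11). Alcam, an adhesion molecule that binds CD6, gave 110.1, 109.8, 118.1 and 107.8 and then 271, 270.5 and 277.5 (1.29 ± 0.09). All 3 genes rose without overlap, which again was a condition of their choice, and the Alcam arrays were nearly equal within each group. Srxn1, an antioxidant enzyme, rose from 66.2 to 177 (a further, dim probe set gave 0.28 and was not called), and Omp, the olfactory marker protein, from 18.4 to 46.3, having passed the filter only through its arrays at 3 h. With all arrays of the series in the fit, Barx2 (adjusted p 0.0553), Mknk1 (0.0745) and Omp (0.0803) were not called.

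The same interval in PBS-treated cells gave almost no calls. By limma with Benjamini-Hochberg adjustment, 0 of 7541 probe sets (0%) were higher and 2 (0.0265%) were lower at 3 h than at 0.8 h. Counted by gene, 0 were higher and 1 of 5641 (0.0177%) was lower. In PBS-treated cells 585 probe sets had an unadjusted p under 0.05, against 1782 in NmU-treated cells. The 2 lower probe sets were Map3k8, from 510 to 309 (-0.72, adjusted p 0.0134), and a probe set of Sc5d, an enzyme of sterol synthesis, from 25.8 to 7.05 (-1.71, adjusted p 0.0134). Sc5d lies outside the rule for named genes and was chosen after its values were seen. PBS 3 h replicate 4 correlated least with its group (0.951 to 0.960 over log2 signals, where replicates 2 and 3 reached 0.977), and without it 0 probe sets were higher and 0 lower. Without PBS 3 h replicate 3, 1 was higher and 2 were lower. The fall of Map3k8 in NmU-treated cells was larger than that in PBS, with a log2 difference of -0.98 ± 0.14.

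Whether the change over time differed between NmU and PBS was tested directly, as the difference of the changes in 1 fit of the 15 arrays. It was above 0 for 66 probe sets (0.875%) and below 0 for 70 (0.928%) by limma with Benjamini-Hochberg adjustment. The difference was -2.98 ± 0.28 for Egr1, -2.96 ± 0.22 for Fos, -2.39 ± 0.26 for Egr2 and -1.47 ± 0.13 for Ier2. It was 2.98 ± 0.42 for Ccl1, 2.36 ± 0.28 for Tnfsf8 and 1.84 ± 0.32 for Cd44. These 7 genes, with Zfp36, Gadd45b, Map3k8, Nfkbiz, Cxcr4, Myb, Irf8, Apaf1, Rbl1, Tle3 and Srxn1, kept that call in each of the 15 fits that left out 1 array, and so did no other of the 39 named genes with such a call. Il5 (1.64 ± 0.38, adjusted p 0.0415), Il4 (0.87 ± 0.19, adjusted p 0.03) and Ccl3 (1.34 ± 0.30, adjusted p 0.0361) lost it in some of them (highest adjusted p 0.0889, 0.0845 and 0.104). For Il13 the adjusted p was 0.111, for Il9 0.116, for Ccl4 0.235, for Klf10 0.0951 and for Cish 0.377. A difference from PBS was not shown for these, nor for the other named genes without such a call.

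Arrays of both treatments set the count of such differences. Without PBS 3 h replicate 4, the array that stood apart from its group, 94 probe sets were above 0 and 126 below, and 38 of the 39 named genes kept the call (all but Mxd3). Without PBS 3 h replicate 3 the counts were 37 and 40, and without PBS 0.8 h replicate 2 or 3 they were 36 and 36, and 33 and 36. Without NmU 0.8 h replicate 1, 3 or 4 they were 39 and 43, 41 and 38, and 49 and 41. Without NmU 3 h replicate 1, 2 or 3 they were 28 and 37, 36 and 38, and 39 and 40. Of the division genes, 2 of 31 in the mitosis list (Nusap1 and Foxm1) and 0 of 34 in the replication list differed in their change from PBS, against 61 of 5641 genes (1.08%) with a lower change in NmU and 45 (0.798%) with a higher one.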

How the data were processed

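Total RNA of D10.G4.1 cells was measured on arrays of 12488 probe sets, 66 of them controls. The deposited values are linear intensities, 1 per probe set and array, and how the authors corrected background and scaled the arrays is not stated in the labels; leaving out the highest and lowest 2% of values, the mean was 150.09 to 150.11 on each array. On the 7 NmU arrays the median signal was 35.9 to 40.2, and 18.33% to 22.91% of values were at or below the floor; the number of arrays limits the precision.

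Signals were floored at 5.8 (20th percentile of all values), taken as log2, and kept above 20.2 (40th percentile) in the mean of either group. limma 3.58.1 (R 4.3.3) was fitted to the 7 arrays, and to 15 arrays for PBS and for the difference of changes; p-values are two-sided and adjusted over all 7541 probe sets. Fits were tested on simulated data. Of 12422 probe sets, 10833 had 1 gene symbol, 396 several and 1193 none; 10817 were matched to RefSeq by gene identifier and no symbol changed. A gene is its brightest probe set. No 2 arrays were identical.

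Genes were named by rule: the 15 largest rises and 15 largest falls without overlap, all immediate-early factors, Th2 cytokines and chemokines, Nmur1, and up to 6 genes of lowest p in each other list. Not all of these are printed, and counts of named genes cover 102 of them. Lack of overlap was thus a condition of the largest changes, and its share over all genes tested is not given. Genes that limma did not call lacked overlap too, among them Hprt (adjusted p 0.412) and Cd28 (0.388). Lack of overlap therefore describes the arrays and adds no support to a call. The members and the 38 lists were chosen with earlier results of these data known. Alternatives were another floor, filter, scaling, variance model, choice of arrays and probe set, a replicate block, and leaving out each array. No library date or batch was used, as the labels give none.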

Additional observations from a re-analysis of the deposited data

Results flagged for a closer look

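For 39 of the 102 named genes counted here, the change from 0.8 to 3 h differed between NmU- and PBS-treated cells (adjusted p under 0.05). The test was limma's, of the difference itself, and the values are log2 differences, NmU minus PBS. Over all 5641 genes tested, 45 (0.798%) had such a difference upward and 61 (1.08%) downward. The 102 were named in large part by their change or p in NmU-treated cells, and 85 were called there. Their share is therefore not comparable with that over all genes. Agfg1 (1.17, adjusted p 0.00707) and Nfia (-1.68, adjusted p 0.0158) met the naming rule and had such a call, but are not among the 39. Immediate-early and feedback genes had a lower change with NmU than with PBS: Egr1 by -2.98, Fos -2.96, Egr2 -2.39, Ier2 -1.47, Zfp36 -1.26, Btg2 -1.11 and Dusp1 -1.02. So did signalling genes, with Cxcr4 at -1.86, Nfkbiz at -1.32, Map3k8 at -0.98 and Irf1 at -0.82. Part of such a difference can lie in PBS, where Btg2 changed by 0.27 and Cxcr4 by 0.41, neither of them called. Among genes of division, survival and quiescence the values were -1.91 for Aspm, -1.68 for Myb, -1.49 for Stil, -1.29 for Nusap1, -1.19 for Apaf1, -1.001 for Rbl1, -1.003 for Mxd3, -0.93 for Foxm1, -0.87 for Cdkn2c and -0.70 for Foxo3. Lyst stood at -2.78, Ptdss2 at -2.09 and Dnajb1 at -0.67.

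Cytokine and chemokine genes had a higher change with NmU than with PBS: Ccl1 by 2.98, Tnfsf8 2.36, Il5 1.64, Ccl3 1.34 and Il4 0.87. The values of the others were 1.84 for Cd44, 1.59 for Slfn2, 1.52 for Alcam, 1.498 for Srxn1, 1.35 for Gadd45b, 1.35 for Tle3, 1.15 for Irf8, 1.05 for Spred2, 0.91 for Gfi1 and 0.79 for Nfkbia. For 21 of the 39 genes the call was lost in at least 1 of the 15 fits that left out 1 array, with a highest adjusted p of 0.0521 to 0.107.

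Single arrays lay far from the other 3 of their group for 11 genes, out of 306 groups of 4 arrays looked at (102 genes in 3 groups); chance gives such a distance in about 1 of 20 groups, or 15.3 of 306, so their number is not above that. PBS 3 h replicate 4 was the array for 6 of them. It had 379.9 for Myc (203 to 209 on the others), 95.4 for Tnfsf11 (38.6 to 46.2), 82.7 for Tnfrsf8 (286 to 314), 335.4 for Cdkn2c (420 to 436), 9.1 for Bcl6 (33.7 to 37.9) and 88.1 for Nmur1 (247 to 266). The other PBS arrays were replicate 1 at 3 h for Ccl4 (34.6, others 10.8 to 13.2), replicate 2 at 3 h for Dnajb1 (141.6, others 177 to 182) and replicate 3 at 0.8 h for Mxd3 (130.3, others 174 to 182). Of the NmU arrays at 0.8 h, replicate 3 had 615.5 for Nfkbia (others 550 to 557) and replicate 4 had 220.9 for Aurka (others 261 to 269).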

How the results depend on the processing

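Changes by setting are given for the counts, and for the named genes where a call was lost; the cause was not tested. With all arrays in 1 fit, 454 probe sets were lower in NmU-treated cells, 18 replication genes were lower and 2 chemokines higher, the change differed from PBS upward for 124 and downward for 144 probe sets, and 0 were lower in PBS. With the NmU arrays of all 4 times, 429 probe sets and 20 replication genes were lower. With trend and robust variance, 277 probe sets were higher and 18 replication genes lower. With a common median, 4 replication genes were lower and 41 differences from PBS were upward. Without the filter, 2 Th2 cytokines were higher. The PBS count was 1 lower with the common median, the filter in every group, either floor, no filter, and trend and robust variance.

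The labels do not say that replicate numbers mark a shared culture, and not every same-numbered pair deviated together: NmU arrays of 0.8 and 3 h correlated at 0.0584, 0.0082 and 0.0143, and over the 21 such pairs of the 4 groups the values ran from -0.2283 to 0.2534, with 5 above 0.1. The negative values all involved PBS 3 h replicate 1 or 4. Some pairs of unlike number were higher: PBS 3 h replicate 4 with PBS 0.8 h replicate 1 (0.3745) and NmU 3 h replicate 1 (0.2859), and PBS 3 h replicate 1 with NmU 0.8 h replicate 4 (0.3019). Others were as low as -0.2049. Whether the labels of PBS 3 h replicates 1 and 4 were exchanged was not tested. Whether equal numbers mark a shared culture was thus not settled, and the main fits took no pairing. With the number as a block, which left 2 residual degrees of freedom in the NmU fit, 14 probe sets were higher and 20 lower, 4 immediate-early factors, 2 mitosis and 0 replication genes were lower, 0 Th2 cytokines and 1 chemokine were higher, 41 differences from PBS were downward and 0 probe sets were lower in PBS.

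Leaving out 1 array gave 87 to 146 probe sets higher and 133 to 218 lower in NmU-treated cells, 28 to 94 and 36 to 126 differences from PBS, 0 to 1 higher and 0 to 2 lower in PBS, 1 to 10 replication and 6 to 15 mitosis genes lower and 1 to 2 Th2 cytokines higher. Of the 102 named genes counted, 85 were called, and 55 of these kept the call in all 7 of these fits. Of the 102 named genes, calls were lost for Il9 and Omp with the NmU arrays of all times; for Il9, Ccl4, Ccl7, Tnfrsf8, Cyp51, Idi1, Trib3, Barx2, Mknk1 and Omp with all arrays; for Atf3, Il13, Il6st, Mcm7, Tk1 and Idi1 with a common median; for Il13, Il6st and Tnfrsf8 with quantile scaling; for Mef2c, Aspm and Barx2 with the higher floor; for Atf3, Il4, Il4ra and Zap70 with the mean over probe sets; for Btg2, Il5, Il9, Ccl7, Il6st, Tnfrsf8, Ppp3cc, Mcm10, Msmo1 and Idi1 without the filter; for Il9 with trend and robust variance; and for 63 genes with the block. The change of Ccl2 turned to -0.23 without NmU 3 h replicate 1 and ran up to 0.32 without NmU 3 h replicate 3.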

Other observations

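The counts of 4 further lists between 0.8 and 3 h of NmU stand beside 2.29% of all genes tested higher and 4.25% lower. Of 14 genes of the CREB family and cAMP signalling, 1 rose (Crem) and 2 fell (Atf3 and Prkacb). Prkacb, a catalytic subunit of protein kinase A, met the naming rule but is not among the 102 named genes counted here. Of 18 activation molecules of the T cell surface, 1 rose (Cd44) and 1 fell (Tnfrsf8), with a median log2 change of 0.06. Of 24 genes of the amino acid response and the tRNA synthetases, 1 fell (Trib3), and of 17 genes of the unfolded protein response, 1 fell (Dnajb9).

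The late arrays were not ranked alike across lists. NmU 3 h replicate 1 was the highest of the 3 for 25 of 34 replication genes and 19 of 31 mitosis genes, against 1859 of 5641 genes tested.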
